A study of Mus musculus with 10 samples.

Results

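Intraepithelial lymphocytes are T cells that live between the epithelial cells of the gut. Marker genes of these cells were chosen by name from the deposited expression table: the receptor genes Cd3e, Cd3g, Trac and Trdc, the coreceptor and adhesion genes Cd8a and Itgae, and the effector genes Gzma, Gzmb, Nkg7 and Ccl5. Each symbol matched a single entry, so that 10 of the 55487 genes listed are described here. The study compared colonic intestinal epithelial cells (IECs) of WT mice and of RhoB-/- mice, which lack both copies of the gene for the small GTPase RhoB, by RNA sequencing of 5 libraries per genotype. All mice had the C57BL/6J background, no treatment is named in the labels, and the methods give an age of 6 to 8 weeks as the default for the study. The knockout acts in every cell of the animal, lymphocytes included. The WT males were purchased while the RhoB-/- mice were generated elsewhere, so that the origin of the mice and the genotype cannot be told apart.

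The epithelium was released from colon pieces with EDTA and DTT, and no sorting step is described, so lymphocytes lying in the epithelium could be carried along with it. Most of these lymphocytes carry the T cell receptor with its CD3 subunits, many carry CD8, and the integrin alpha E beta 7 holds them to E-cadherin on epithelial cells. They are known as a ready-made cytotoxic population that stores granzymes and the chemokine CCL5 as message or protein before any new stimulus. Gut epithelium holds alpha beta as well as gamma delta T cells, and epithelial butyrophilin-like proteins, cytokines and the nonclassical class I molecule TL are known to maintain or restrain them.

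Levels are given as TPM, a share of all transcripts that is corrected for gene length, scales each library to nearly the same total and keeps no sequencing depth. A log2 fold change is here the RhoB-/- mean of log2(TPM + 1) minus the WT mean, which makes changes at low levels look smaller than they are. All genes in the table that reached a mean of 1 TPM were tested with limma, and a gene is called higher or lower where its Benjamini-Hochberg adjusted p is below 0.05. Of the 12870 genes tested, 995 were called higher (7.73%) and 1734 lower (13.5%) in RhoB-/- libraries. The median log2 fold change of all tested genes was -0.13, so values near 0 lie slightly above the typical gene. The split of calls depends on this centre. Recentring on the median moved all RhoB-/- libraries by the same amount, which shifts all log2 fold changes by 0.13. With it, 1443 genes were called higher and 771 lower, and after removal of the mitochondrial genes instead 1076 were called higher and 3648 lower.

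The targeted gene was examined before the markers. Rhob had TPM of 171, 303, 365, 333 and 389 in WT replicates 1 to 5, and of 0.09, 0.10, 0.35 and 0.57 in RhoB-/- replicates 1 to 4. In the library labelled RhoB-/- replicate 5, Rhob stood at 110.87 TPM, which goes against its label. Over all libraries Rhob was called lower (log2 fold change -6.61, adjusted p = 0.00172, limma). The library was kept in the group that its label gives, and the counts of called markers and list genes are also given without it. The tissue was checked with general epithelial markers: Krt8, a keratin of simple epithelia, had 3974 to 4669 TPM in WT and 3938 to 6128 TPM in RhoB-/- libraries, and Epcam had 969 to 1319 and 1124 to 1639 TPM.

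Of the 10 marker genes, 9 passed the filter on low TPM and 8 of these were called higher in RhoB-/- mice (7.73% of all tested genes were), with none lower. The exceptions were Trac, which missed the threshold, and Trdc, which was below the filter. The 8 called genes were also those for which every RhoB-/- library exceeded every WT library, a pattern found for 5.97% of all tested genes. For the 9 tested markers the log2 fold changes had a median of 1.10. Without the library labelled RhoB-/- replicate 5, the same count of 8 was called higher, with a median of 1.12, while the counts over all genes were 728 higher and 1092 lower. Cd8a and Itgae had a WT mean below 1 TPM and passed the filter through their RhoB-/- values. With a mean of at least 1 TPM required in each genotype, a filter added after seeing the data, 7 markers were tested and 6 called higher, beside 891 of all 12117 genes (7.35%). In bulk RNA, more cells of a type and more RNA of that kind per cell cannot be told apart.

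**Figure D1:**
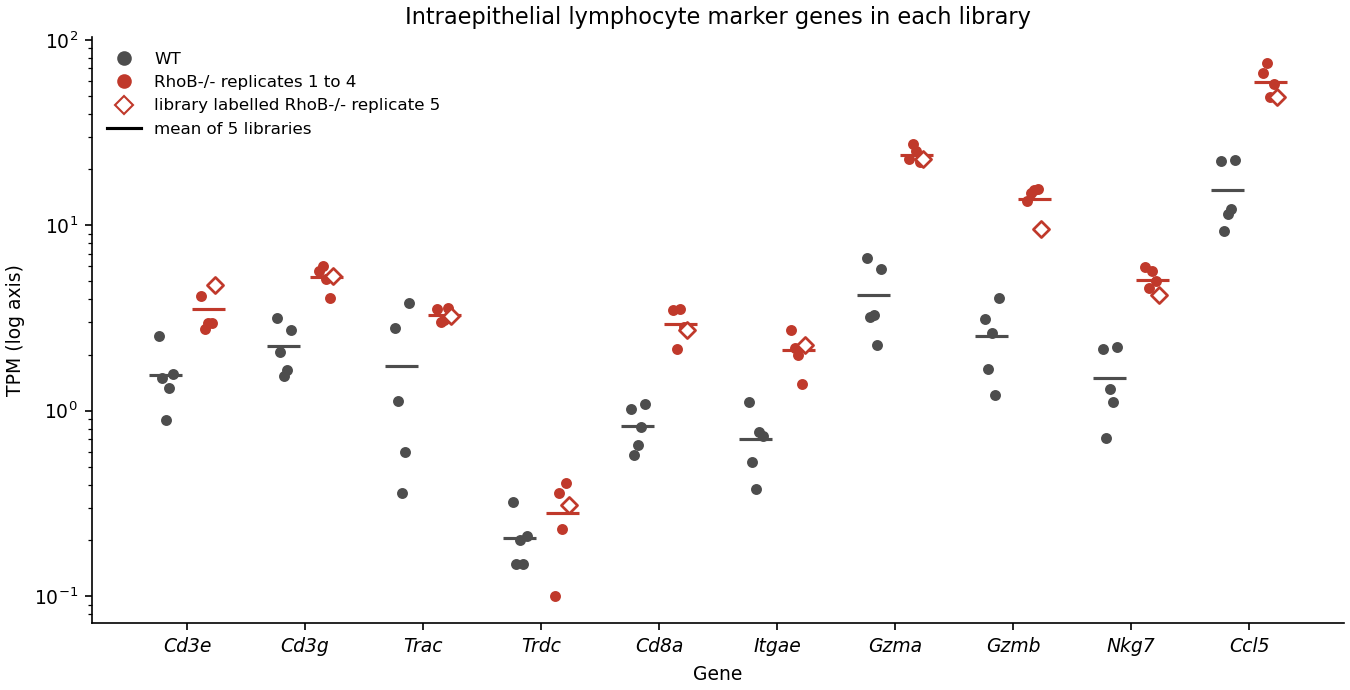
TPM of the 10 marker genes on a log axis, with 1 point per library for 5 WT (grey) and 5 RhoB-/- libraries (red, the library labelled replicate 5 as an open diamond) and lines at the group means. The groups are apart for 8 genes, from Itgae near 1 TPM to Ccl5 at 49.1 to 74.6 TPM in RhoB-/- libraries, and overlap for Trac and Trdc.

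The CD3 subunits carry the signal of the T cell receptor into the cell. Cd3e (chr9:44998740-45009627, minus strand, GRCm38) had TPM of 2.53, 1.51, 0.89, 1.32 and 1.57 in WT replicates 1 to 5 and of 4.13, 2.76, 2.98, 2.98 and 4.75 in RhoB-/- replicates 1 to 5. The groups were narrowly apart, with WT replicate 1 just below RhoB-/- replicate 2, and the highest value came from the library labelled RhoB-/- replicate 5. Mean TPM was 1.56 ± 0.602 in WT and 3.52 ± 0.873 in RhoB-/- libraries (SD, n = 5 each), and the log2 fold change was 0.83 (standard error 0.19, adjusted p = 0.0112, limma). Without that library it was 0.74 (adjusted p = 0.0299, limma).

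Cd3g, which lies 18309 bases from Cd3e on the same strand (chr9:44969572-44980431), had TPM of 3.17, 2.08, 1.53, 1.65 and 2.74 in WT and of 5.66, 6.00, 5.14, 4.04 and 5.32 in RhoB-/- replicates 1 to 5. Every RhoB-/- value lay above 4 TPM and every WT value below 3.2, with WT replicates 1 and 5 highest in their group. Its log2 fold change was 0.96 (standard error 0.16, adjusted p = 0.00213, limma), against 0.96 (adjusted p = 0.00765, limma) without the library labelled RhoB-/- replicate 5.

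Trac and Trdc encode the constant regions of the receptor alpha and delta chains, and stand for alpha beta and gamma delta T cells. They lie 71653 bases apart on the plus strand of chromosome 14, Trdc at chr14:54142851-54148868 and Trac at chr14:54220521-54224206. Trac had TPM of 2.79, 1.13, 0.36, 0.60 and 3.79 in WT replicates 1 to 5 and of 3.52, 3.01, 3.10, 3.60 and 3.24 in RhoB-/- replicates 1 to 5. The RhoB-/- libraries lay close together, whereas WT varied by more than any other marker in that group relative to its mean: WT replicate 5 exceeded all RhoB-/- libraries and replicate 1 came near them. Mean TPM was 1.73 ± 1.49 in WT and 3.29 ± 0.258 in RhoB-/- libraries (SD, n = 5 each). The log2 fold change of 0.82 was as large as that of Cd3e but was not called (standard error 0.31, adjusted p = 0.0785, limma). It passed the threshold when WT replicate 1 (0.98, adjusted p = 0.0488) or WT replicate 5 (1.07, adjusted p = 0.0231, limma) was left out, and its adjusted p ranged from 0.0231 to 0.187 over the 18 alternative settings of filter, scaling or libraries.

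Trdc was the least abundant marker in both genotypes. Its TPM was 0.32, 0.15, 0.20, 0.15 and 0.21 in WT and 0.10, 0.36, 0.23, 0.41 and 0.31 in RhoB-/- replicates 1 to 5. The groups overlapped over most of their range, and the lowest value of all 10 libraries came from RhoB-/- replicate 1. Among all 252 labelings of the 10 libraries, the exact permutation test gave a two-sided p of 0.278 (adjusted p = 1 over the 15244 genes below the filter). At such levels a change of Trdc may lie below what these libraries can show, since read counts cannot be recovered from TPM. On the opposite strand Trdc is overlapped by Trdv5, with at most 0.99 TPM, and Gm43434, with at most 0.13 TPM.

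The coreceptor CD8 is found on many intraepithelial lymphocytes, often as pairs of alpha chains without beta chains. Cd8a (chr6:71373427-71379173, plus strand), the alpha chain, had TPM of 1.02, 0.58, 0.65, 0.82 and 1.09 in WT and of 3.50, 2.14, 3.55, 2.81 and 2.71 in RhoB-/- replicates 1 to 5. The lowest RhoB-/- value was close to 2 times the highest WT value. Mean TPM was 0.832 ± 0.223 and 2.94 ± 0.591 (SD, n = 5 each), and the log2 fold change was 1.10 (standard error 0.16, adjusted p = 8.3e-04, limma), or 1.12 without the library labelled RhoB-/- replicate 5 (adjusted p = 0.00225, limma).

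Itgae encodes the alpha E chain (CD103) of the integrin that binds E-cadherin. It lies on the plus strand (chr11:73090583-73147446) and had TPM of 1.12, 0.53, 0.38, 0.77 and 0.73 in WT and of 2.74, 2.19, 2, 1.39 and 2.27 in RhoB-/- replicates 1 to 5. RhoB-/- replicate 4 came nearest to WT replicate 1, without overlap. The log2 fold change was 0.87 (standard error 0.18, adjusted p = 0.00713, limma), or 0.85 without the library labelled RhoB-/- replicate 5 (adjusted p = 0.0172, limma). Haspin lies within Itgae on the opposite strand, and whether the reads were counted by strand is not given in the sources used here, although the methods name an orientation mode for the alignment. Haspin had a mean of 3.58 TPM in WT and 4.07 TPM in RhoB-/- libraries, so its level was above that of Itgae in both genotypes, and its part in the Itgae values was not tested.

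The granzymes are serine proteases of cytotoxic granules. Gzma (chr13:113093825-113100981, minus strand) had TPM of 6.63, 3.19, 3.29, 2.27 and 5.78 in WT and of 22.7, 27.3, 25.3, 21.9 and 22.8 in RhoB-/- replicates 1 to 5. The RhoB-/- libraries lay within a narrow band, more than 3 times above the highest WT library, and WT replicates 1 and 5 were again the highest of their group. Mean TPM was 4.23 ± 1.87 in WT and 23.98 ± 2.25 in RhoB-/- libraries (SD, n = 5 each), a ratio of means of 5.67. The log2 fold change was 2.32 (standard error 0.21, 95% interval 1.87 to 2.78, adjusted p = 1.8e-05, limma), the largest among the 10 markers, and 2.34 without the library labelled RhoB-/- replicate 5 (adjusted p = 1.6e-04, limma).

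Gzmb (chr14:56258838-56262260, minus strand) had TPM of 3.12, 1.67, 2.63, 1.21 and 4.05 in WT and of 13.5, 14.9, 15.4, 15.6 and 9.50 in RhoB-/- replicates 1 to 5. Here the library labelled RhoB-/- replicate 5 was the lowest of its group, though still above each WT library. The log2 fold change was 2.11 (standard error 0.22, adjusted p = 6.4e-05, limma) and rose to 2.23 without that library (adjusted p = 1.5e-04, limma).

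Nkg7 (chr7:43437073-43438249, plus strand), a membrane protein of cytotoxic granules, had TPM of 2.15, 0.71, 1.31, 1.11 and 2.21 in WT and of 5.99, 4.58, 5.70, 4.98 and 4.23 in RhoB-/- replicates 1 to 5. The groups did not overlap, and the library labelled RhoB-/- replicate 5 was again the lowest of its group. The log2 fold change was 1.32 (standard error 0.19, adjusted p = 6.4e-04, limma), or 1.37 without that library (adjusted p = 0.00192, limma).

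Ccl5, a chemokine for T cells and other leukocytes that resident cytotoxic T cells keep as stored message, was the most abundant marker. Its TPM was 22.2, 9.35, 11.5, 12.3 and 22.6 in WT and 66.6, 74.6, 49.3, 57.7 and 49.1 in RhoB-/- replicates 1 to 5. All RhoB-/- libraries lay at least 26 TPM above WT replicates 1 and 5, which formed the upper end of WT. Mean TPM was 15.6 ± 6.29 and 59.45 ± 11.1 (SD, n = 5 each), and the log2 fold change was 1.93 (standard error 0.23, adjusted p = 2.1e-04, limma), or 1.99 without the library labelled RhoB-/- replicate 5 (adjusted p = 8.9e-04, limma). Ccl5 lies at chr11:83525778-83530518 on the minus strand.

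Gzma, Gzmb and Nkg7 encode proteins of the cytotoxic granule and were each called higher, so their promoter sequences are shown. RefSeq promoter entries on GRCm38.p6 were matched for 6 of the 10 markers (Cd3e, Cd3g, Cd8a, Gzma, Gzmb and Nkg7), and none for Ccl5, Itgae, Trac and Trdc. The 250 bases before the RefSeq start are printed 5′ to 3′ on the strand of the gene, from chr13:113100982-113101231 (minus) for Gzma, chr14:56262335-56262584 (minus) for Gzmb and chr7:43436888-43437137 (plus) for Nkg7. The RefSeq start equals the GENCODE gene edge for Gzma, lies 74 bases upstream of it for Gzmb and 65 bases inside the GENCODE gene for Nkg7. Capitals mark TGTGGT, the core sequence bound by RUNX factors, on either strand.
Gzma: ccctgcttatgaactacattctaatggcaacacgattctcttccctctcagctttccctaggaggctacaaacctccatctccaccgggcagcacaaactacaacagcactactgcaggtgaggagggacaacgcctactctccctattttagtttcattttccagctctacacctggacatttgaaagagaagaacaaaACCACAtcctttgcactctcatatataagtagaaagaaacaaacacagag
Gzmb: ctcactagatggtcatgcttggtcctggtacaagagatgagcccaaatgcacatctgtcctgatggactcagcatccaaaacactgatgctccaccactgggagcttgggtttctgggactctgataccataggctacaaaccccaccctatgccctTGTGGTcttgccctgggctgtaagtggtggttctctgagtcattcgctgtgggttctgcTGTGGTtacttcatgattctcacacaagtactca
Nkg7: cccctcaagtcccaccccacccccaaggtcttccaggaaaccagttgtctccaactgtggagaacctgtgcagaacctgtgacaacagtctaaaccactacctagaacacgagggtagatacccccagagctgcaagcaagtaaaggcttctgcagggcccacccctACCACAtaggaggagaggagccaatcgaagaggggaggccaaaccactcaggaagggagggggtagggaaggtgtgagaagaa

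Counted from the RefSeq start, the core starts 50 bases before it in Gzma, 93 and 34 bases before it in Gzmb and 83 bases before it in Nkg7. It was found in these 3 of the 6 promoters and in 14% of all 32851 RefSeq promoters of the same length. The other 3 motifs searched on both strands were TCACACC, a T-box site (3.33% of all promoters), found in Nkg7, AGGAAGT, an ETS core (7.69%), found in Cd3e, and GAAANNGAAA, an interferon response element (2.98%), found in Gzma. None of the 4 was found in the windows of Cd3g and Cd8a. These matches describe the letters in the windows and are not shown to be sites in use. Of the RUNX genes only Runx3 was on a gene list, and its TPM was 0.08 to 0.61 in WT and 0.54 to 1.48 in RhoB-/- libraries, below the filter.

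The markers kept a similar order of levels in both genotypes. Ccl5 was highest in all 10 libraries and Gzma came next, also in all 10. In RhoB-/- libraries the ranges of Ccl5, Gzma, Gzmb and the markers below Gzmb did not overlap from each rank to the next, whereas in WT only Ccl5 stood clear of the gene below it, apart from Itgae above Trdc. Cd3g, Nkg7, Cd3e, Trac, Cd8a and Itgae followed in RhoB-/- libraries with ranges that overlapped between neighbours, and Trdc was last, with its highest value of 0.41 TPM below the lowest Itgae value of 1.39 TPM. Within WT, replicates 1 and 5 varied with each other: replicate 1 was among the 2 highest WT libraries for all 10 markers and replicate 5 for 9. Within RhoB-/- libraries, replicates 1 to 5 were among the 2 highest for 7, 4, 4, 3 and 2 markers. The summed TPM of the 10 markers was 45.0, 20.9, 22.8, 22.2 and 44.8 in WT and 128, 138, 113, 115 and 104 in RhoB-/- replicates 1 to 5.

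Ratios between genes of the same library were used to compare markers with each other, 4 in all, each as log2 of (TPM + 0.1) over (TPM + 0.1) with an exact two-sided permutation test adjusted over the 4. The log2 ratio of Gzma to Cd3e was 1.36, 1.03, 1.78, 0.74 and 1.82 in WT and 2.43, 3.26, 3.04, 2.83 and 2.24 in RhoB-/- replicates 1 to 5. Every RhoB-/- library was above every WT library, so the granzyme message was higher also relative to the CD3 message. The difference was 1.42 (p = 0.00794, the smallest that 5 against 5 allow; adjusted p = 0.0317, exact permutation), and 1.55 without the library labelled RhoB-/- replicate 5 (p = 0.00794, exact permutation).

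For Gzmb to Cd3e the log2 ratios were 0.29, 0.14, 1.46, -0.12 and 1.31 in WT and 1.69, 2.39, 2.33, 2.35 and 0.99 in RhoB-/- replicates 1 to 5. The library labelled RhoB-/- replicate 5 lay within the WT range and the other 4 above it. The difference of 1.33 had an exact permutation p of 0.0317 (adjusted p = 0.0423), and of 1.57 without that library (p = 0.0159). Leaving out WT replicate 1, 2 or 4 or RhoB-/- replicate 2, 3 or 4 instead gave 1.15 to 1.25, each with p = 0.0556 in the exact permutation test, so this ratio passes only with all libraries or without 1 of the other 4.

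Cd8a was also set against Cd8b1, the CD8 beta chain. Cd8b1 had TPM of 0.10, 0.10, 0.09, 0.04 and 0.09 in WT and of 1.95, 0.61, 0.91, 0.70 and 0.84 in RhoB-/- replicates 1 to 5. It was thus near the limit of the table in WT and above 0.6 TPM in each RhoB-/- library, without overlap (exact permutation p = 0.00794, adjusted p = 0.279 over the 15244 genes below the filter, where 0.279 is the smallest adjusted p reached). The log2 ratio of Cd8a to Cd8b1 had a mean of 2.32 ± 0.422 in WT and 1.55 ± 0.432 in RhoB-/- libraries (SD, n = 5 each), a difference of -0.77 (exact permutation p = 0.0238, adjusted p = 0.0423). The direction depends on the pseudocount, since 0.1 is as large as the WT values of Cd8b1: with a pseudocount of 1 the difference was 0.25 (p = 0.0952, exact permutation). It also missed the threshold without RhoB-/- replicate 1 (-0.58, p = 0.0556, exact permutation), and was -0.77 without the library labelled RhoB-/- replicate 5 (p = 0.0476, exact permutation).

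The log2 ratio of Trdc to Trac was -2.78, -2.30, -0.62, -1.49 and -3.65 in WT and -4.18, -2.76, -3.28, -2.86 and -3.03 in RhoB-/- replicates 1 to 5. The WT libraries spread over the whole RhoB-/- range except for RhoB-/- replicate 1. The difference of -1.05 did not pass the test (exact permutation p = 0.127, adjusted p = 0.127), and was -1.10 without the library labelled RhoB-/- replicate 5 (p = 0.151) and -1.42 without WT replicate 5 (p = 0.0159, exact permutation). A shift between gamma delta and alpha beta receptor message was therefore not shown.

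**Figure D2:**
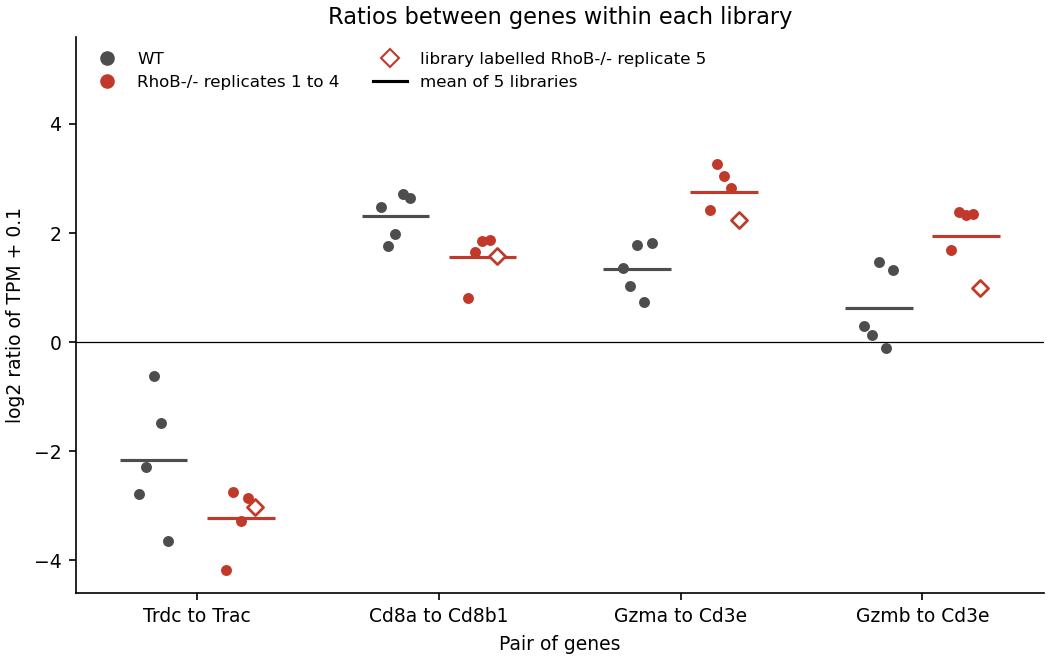
Log2 ratio of TPM + 0.1 between 4 pairs of genes within each library, for 5 WT (grey) and 5 RhoB-/- libraries (red, the library labelled replicate 5 as an open diamond), with lines at the group means. Only the ratio of Gzma to Cd3e separates the groups completely, with 0.74 to 1.82 in WT and 2.24 to 3.26 in RhoB-/- libraries.

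The markers were set beside 4 lists of other genes of these lymphocytes, chosen by role: 80 genes, of which 28 were tested, 14 called higher and none lower, with a median log2 fold change of 0.61 against -0.13 over all tested genes, of which 7.73% were called higher. Of these 14 genes 6 (Zap70, Lat, Ptpn22, Tyrobp, Il2rb and Itgb7) had a WT mean below 1 TPM, and with the filter applied in each genotype 9 of 21 were called higher, with a median of 0.48 against -0.13 over all genes. Without the library labelled RhoB-/- replicate 5 and with the filter on all libraries, 12 of the 28 were called higher, the calls of Cd160 (0.53, adjusted p = 0.0607) and Tyrobp (1.15, adjusted p = 0.0545, limma) being lost while their log2 fold changes stayed near those with all libraries (0.58 and 1.29). Of the 52 genes below the filter, 15 had every RhoB-/- library above every WT library, against 1.26% of the 15244 genes of that kind in the table. None of those 15244 genes passed an adjusted p of 0.05 in the exact permutation test, while 1430 had an unadjusted p below 0.05.

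Among other receptor chains and T cell surface proteins, 7 of 16 genes were tested and 3 were called higher: Cd7, a surface protein of T and NK cells (log2 fold change 0.94, adjusted p = 0.00837), Trbc2, a constant region of the beta chain (0.93, adjusted p = 0.0029), and Trgc2, a constant region of the gamma chain (0.78, adjusted p = 0.0121, limma). Cd7 was the most abundant, with 3.44 to 9.04 TPM in WT and 8.67 to 12.6 TPM in RhoB-/- libraries. Not called were Trbc1 (0.49), Trgc4 (0.48, adjusted p = 0.0512, limma, without overlap of the groups, and 0.0405 and called with the filter applied in each genotype), Trgc1 (0.46) and the CD3 zeta chain Cd247 (0.39). Trgc4 and Trgc2 had WT libraries between 0.88 and 1.91 TPM and RhoB-/- libraries between 1.62 and 5.13 TPM, so that gamma chain message was several times that of Trdc in both genotypes.

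The 9 receptor and surface genes below the filter were Cd3d, Cd8b1, Cd4, Cd2, Cd5, Cd6, Cd27, Cd28 and Trgc3. Cd3d, a further CD3 subunit gene, had 0.29 to 0.89 TPM in WT and 0.86 to 2.42 TPM in RhoB-/- libraries (exact permutation p = 0.0159). Cd6, a surface receptor of conventional T cells, had 0 to 0.15 and 0.42 to 1.37 TPM without overlap, and Cd5, of the same family, had 0.02 to 0.12 and 0.11 to 1.07 TPM. Cd4, which marks helper T cells, was listed at 0 in 4 of 5 WT libraries and had 0.04 to 0.33 TPM in RhoB-/- libraries. Cd2 ranged from 0.13 to 0.94 TPM in WT and from 0.31 to 0.91 TPM in RhoB-/- libraries, Cd27 from 0 to 1.08 and 0.31 to 1.12 TPM, and Cd28 from 0 to 0.12 and 0.07 to 0.36 TPM, with overlap for each. Trgc3 was listed at 0 in all WT libraries and in 3 RhoB-/- libraries.

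Of 21 genes for receptor signalling and T lineage factors, 7 were tested and 4 called higher, beside 7.73% of all tested genes. These were the adaptor Fyb (0.80, adjusted p = 0.00784), the phosphatase Ptpn22 (0.76, adjusted p = 0.0232), the adaptor Lat (0.73, adjusted p = 0.021) and the kinase Zap70 (0.67, adjusted p = 0.018, limma). Ptpn22, Lat and Zap70 had a WT mean below 1 TPM. With the filter applied in each genotype, 1 of 4 tested genes was called higher, beside 7.35% of all genes. The median log2 fold change of the list was then 0.20, against 0.67 with the filter on all libraries. Lck, the kinase that starts receptor signalling and the most abundant gene of this list, had TPM of 7.71, 4.15, 3.57, 4.54 and 5.22 in WT and of 7.81, 3.21, 5.52, 4.72 and 6.00 in RhoB-/- replicates 1 to 5. The groups overlapped throughout, with a log2 fold change of 0.09 (95% interval -0.37 to 0.55, adjusted p = 0.782, limma). Those of its 14 genes below the filter without overlap between the groups included Lcp2, Grap2, Sh2d2a and Cd96.

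Among 24 other genes for cytotoxic granules and NK-type receptors, 8 were tested and 5 called higher, beside 7.73% of all tested genes. Of these, Tyrobp and Il2rb had a WT mean below 1 TPM. With the filter applied in each genotype 3 of 6 were called higher, beside 7.35% of all genes. Srgn, the proteoglycan that holds granzymes in granules of many leukocytes, had the highest mean over all 10 libraries (2.08 TPM in WT, where Xcl1, Klrd1 and Ctsw were above it, and 7.08 TPM in RhoB-/- libraries) and rose by 1.36 on the log2 scale (adjusted p = 0.00556, limma). Tyrobp, an adaptor of NK and myeloid receptors, had 1.29 (adjusted p = 0.0197), the granule protease Ctsw 0.89 (adjusted p = 0.00188), Il2rb, a receptor subunit for Il2 and Il15, 0.64 (adjusted p = 0.0221), and the receptor Cd160 0.58 (adjusted p = 0.0295, limma). Xcl1, a chemokine of activated CD8 and NK cells, stood at -0.30 and was not called (adjusted p = 0.269, limma). Perforin message (Prf1) was 0 to 0.07 TPM in WT and 0.04 to 0.38 TPM in RhoB-/- libraries, and the effector cytokine Ifng had 0.17 to 1.17 and 0.19 to 1.13 TPM, so neither reached the levels of Gzma and Gzmb in the same genotype. Klrg1 and Ncr1 were listed at 0 in all WT libraries. In RhoB-/- libraries Ncr1 had 0.05 to 0.23 TPM, whereas Klrg1 was at 0 in 3 libraries and at most 0.10 TPM in the others.

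Of 19 genes for homing, residence and differentiation, 6 were tested and 2 called higher, beside 7.73% of all tested genes. One of the 2, Itgb7, had a WT mean below 1 TPM. With the filter applied in each genotype, 1 of 4 tested genes was called higher, beside 7.35% of all genes. The median log2 fold change of the list was then 0.02, against 0.37 with the filter on all libraries. Itgb7, the partner chain of Itgae, had TPM of 0.75, 0.57, 1.13, 0.86 and 0.84 in WT and of 4.72, 1.39, 4.25, 2.36 and 2.24 in RhoB-/- replicates 1 to 5, without overlap (log2 fold change 1.06, adjusted p = 0.00982, limma). Prdm1, a transcription factor of effector and resident lymphocytes that epithelial cells also express, had 1.19 (adjusted p = 0.0201, limma) with 9.52 TPM in the library labelled RhoB-/- replicate 5 and at most 4.24 TPM elsewhere. The aryl hydrocarbon receptor gene Ahr, highest of the list over all 10 libraries but below Prdm1 and Itgb7 in RhoB-/- libraries, had 2.93 to 4.28 TPM in WT and 2.40 to 3.30 TPM in RhoB-/- libraries and was not called (-0.29, adjusted p = 0.115, limma). Jaml (0.40), Cd69 (0.34) and Itga1 (-0.35) were not called either. Of the 13 genes below the filter, Cxcr3, Cxcr6, Gpr18, Gpr55 and Hic1 did not overlap between the groups, and the others did. Of all genes below the filter, 1.26% had every RhoB-/- library above every WT library.

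**Figure D3:**
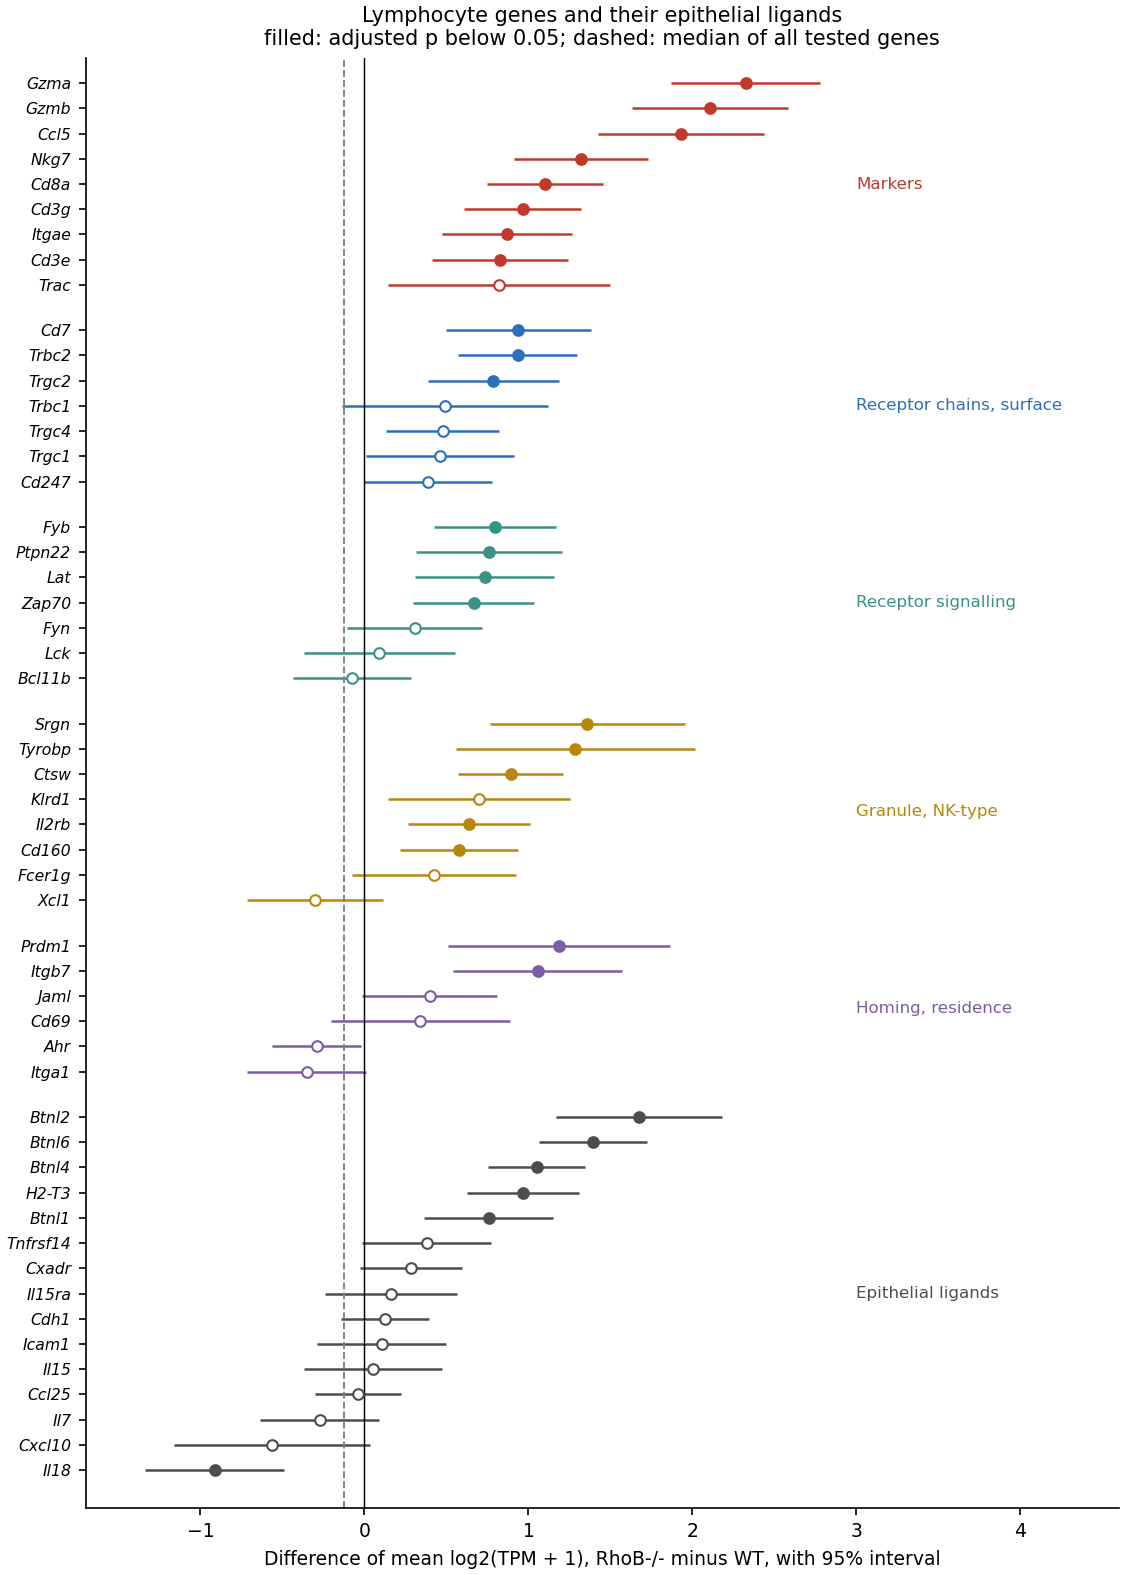
Difference of mean log2(TPM + 1) between RhoB-/- and WT libraries with its 95% interval for each tested gene of the markers, the 4 lymphocyte lists and the epithelial ligands (filled points: adjusted p below 0.05; n = 5 libraries per genotype, limma). Gzma, Gzmb and Ccl5 lie farthest to the right at 2.32, 2.11 and 1.93, while Lck, Bcl11b, Xcl1, Ahr and Itga1 lie near or below 0.

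The epithelial side of this contact was described with 17 genes for ligands and cytokines, of which 15 were tested, 5 called higher and 1 lower, beside 7.73% higher and 13.5% lower over all tested genes. The same 5 and 1 were called without the library labelled RhoB-/- replicate 5, beside 728 and 1092 of all 12870 genes. The 5 were the butyrophilin-like genes Btnl2, Btnl6, Btnl4 and Btnl1 and H2-T3, which encodes TL, a ligand of CD8 alpha pairs. Btnl6, whose product pairs with Btnl1 on enterocytes to maintain gamma delta lymphocytes of the small intestine, had TPM of 30.9, 45.1, 40.6, 34.4 and 41.2 in WT and of 98.2, 87.7, 97.0, 90.4 and 144 in RhoB-/- replicates 1 to 5. The groups were well apart, with the library labelled RhoB-/- replicate 5 highest (log2 fold change 1.39, adjusted p = 9.2e-05, and 1.27 without that library, adjusted p = 1.1e-04, limma). Btnl1 rose by 0.76 (adjusted p = 0.013), Btnl4 by 1.05 (adjusted p = 3.6e-04), Btnl2 by 1.67 (adjusted p = 5.5e-04) and H2-T3 by 0.97 on the log2 scale (adjusted p = 0.00159, limma).

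Il18, an epithelial cytokine, was the only gene of this list called lower, with 51.7, 114, 100.3, 89.3 and 91.0 TPM in WT and 46.6, 52.9, 38.2, 38.1 and 53.6 TPM in RhoB-/- replicates 1 to 5. WT replicate 1 lay within the RhoB-/- range and the other WT libraries above it (log2 fold change -0.91, adjusted p = 0.00784, limma). Cdh1, which encodes E-cadherin and was the most abundant of the list, had 310 TPM in WT and 337 TPM in RhoB-/- libraries on average and was not called (0.13, adjusted p = 0.477, limma). Il15, which lymphocytes of the epithelium need to survive, was not called either (0.05, 95% interval -0.37 to 0.47, adjusted p = 0.869, limma), nor were its receptor chain Il15ra (0.16), Il7 (-0.27), Ccl25 (-0.04), Cxcl10 (-0.56), Tnfrsf14 (0.38), Cxadr (0.28) and Icam1 (0.10). Cxcl9 and Cxcl11 were below the filter, with at most 0.91 and 0.71 TPM.

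Markers of several other cell types were also higher in RhoB-/- libraries. Beside the counts of these lists, 7.73% of all tested genes were called higher, or 7.35% with the filter applied in each genotype. The 10 markers of leukocytes of any kind summed to 18.1, 14.3, 13.9, 16.7 and 22.1 TPM in WT and to 57.0, 38.7, 50.4, 36.6 and 61.2 TPM in RhoB-/- replicates 1 to 5, without overlap. All 8 tested genes of that list were called higher (Ptprc, Ptprcap, Coro1a, Laptm5, Cd52, Rac2, Arhgdib and Lcp1), with a median log2 fold change of 1.22. Ptprcap had a WT mean below 1 TPM, and with the filter applied in each genotype 7 of 7 were called higher. Cd52 had the highest mean over all 10 libraries (3.07 TPM in WT, below Lcp1 with 4.06 TPM, and 9.03 TPM in RhoB-/- libraries), Laptm5 had 1.49, Arhgdib 1.43 and Coro1a 1.25 on the log2 scale, and none of the 10 was at 0 in any library. Without the library labelled RhoB-/- replicate 5, 7 of the 8 were called higher, the call of Lcp1 being lost (0.54 against 0.55 with all libraries, adjusted p = 0.0731, limma). The part of these leukocyte genes in the marker results was not tested by TPM alone.

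The list of neutrophil and mast cell markers summed to 27.9, 52.2, 31.1, 39.2 and 36.4 TPM in WT and to 130, 68.5, 104, 104.2 and 116 TPM in RhoB-/- replicates 1 to 5, and 3 of its 4 tested genes among 9 were called higher. Ly6g, the most abundant, had 21.2 and 71.1 TPM on average (log2 fold change 1.74). It makes up a large part of these sums, and sums without it were not compared. The mast cell proteases Mcpt1 (3.02) and Mcpt2 (2.04) rose from at most 0.85 TPM in WT. Kit, a mast cell receptor and the other tested gene, went the other way without a call (15.6 and 11.7 TPM, -0.39, adjusted p = 0.0812, limma). S100a8 and S100a9, defining markers of neutrophils, were listed at 0 in all WT libraries and in 2 and 1 of the RhoB-/- libraries. The same WT libraries had 11.7 to 33.7 TPM of Ly6g, so Ly6g by itself cannot be read as a measure of neutrophils here. Which cells its message came from was not tested. B cell and plasma cell markers summed to 3.75, 9.64, 11.03, 12.5 and 15.3 TPM in WT and to 27.9, 9.21, 37.8, 21.9 and 63.5 TPM in RhoB-/- replicates 1 to 5. Of its 10 genes 3 were tested and Igha was called higher (1.19). Igkc was the most abundant (6.87 and 17.1 TPM), Mzb1 was at 0 in all WT libraries and Tnfrsf17 in all libraries. The library labelled RhoB-/- replicate 5 was the highest of this list, with 6.09 TPM of Cd79a against at most 1.96 TPM elsewhere.

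Macrophage and dendritic cell markers overlapped between the genotypes in their sum (18.4, 31.7, 25.4, 29.5 and 26.9 TPM in WT, 42.4, 23.4, 48.1, 28.1 and 40.9 TPM in RhoB-/- replicates 1 to 5), with Cd68 called higher (1.19) among 4 tested of 13 and Cd14, which was the most abundant, not called (0.23). Csf1r, Adgre1, Fcgr1 and Cx3cr1 stayed below 1 TPM apart from 2.14 TPM of Adgre1 in the library labelled RhoB-/- replicate 5, whereas C1qa reached 7.08 TPM in WT replicate 4 and Lyz2 3.96 TPM in the library labelled RhoB-/- replicate 5, both not called. Of 15 stromal markers, which summed to 5.18, 5.27, 4.70, 6.08 and 5.79 TPM in WT and to 6.90, 8.27, 7.77, 17.0 and 37.2 TPM in RhoB-/- replicates 1 to 5, 2 were tested and Dcn, the most abundant, was called higher (1.5), with Emcn at 0 in all WT libraries. The stromal sums did not overlap between the genotypes. Dcn, with 1.80 to 2.30 TPM in WT and 3.27 to 24.5 TPM in RhoB-/- libraries, makes up a large part of them. Stromal sums without Dcn were not compared. Without the library labelled RhoB-/- replicate 5, the counts called higher were again 3 for neutrophil and mast cell, 1 for B and plasma cell, 1 for macrophage and dendritic cell and 1 for stromal markers. Mcpt1, Mcpt2 and Cd68 had a WT mean below 1 TPM, and with the filter applied in each genotype these counts were 1 of 2, 1 of 2, 0 of 2 and 1 of 2 tested genes. Their part in the result was not tested for any of these lists.

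General epithelial markers summed to 9955, 11316, 11286, 10007 and 10661 TPM in WT and to 13504, 9976, 15875, 13020 and 16073 TPM in RhoB-/- replicates 1 to 5. Of the 7 genes Krt20 (1.17), Vil1 (0.65) and Cldn7 (0.53) were called higher and Krt8, the most abundant, was not (0.29). Without the library labelled RhoB-/- replicate 5, 2 of the 7 were called higher, the call of Cldn7 being lost (0.47, adjusted p = 0.083, limma).

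**Figure D4:**
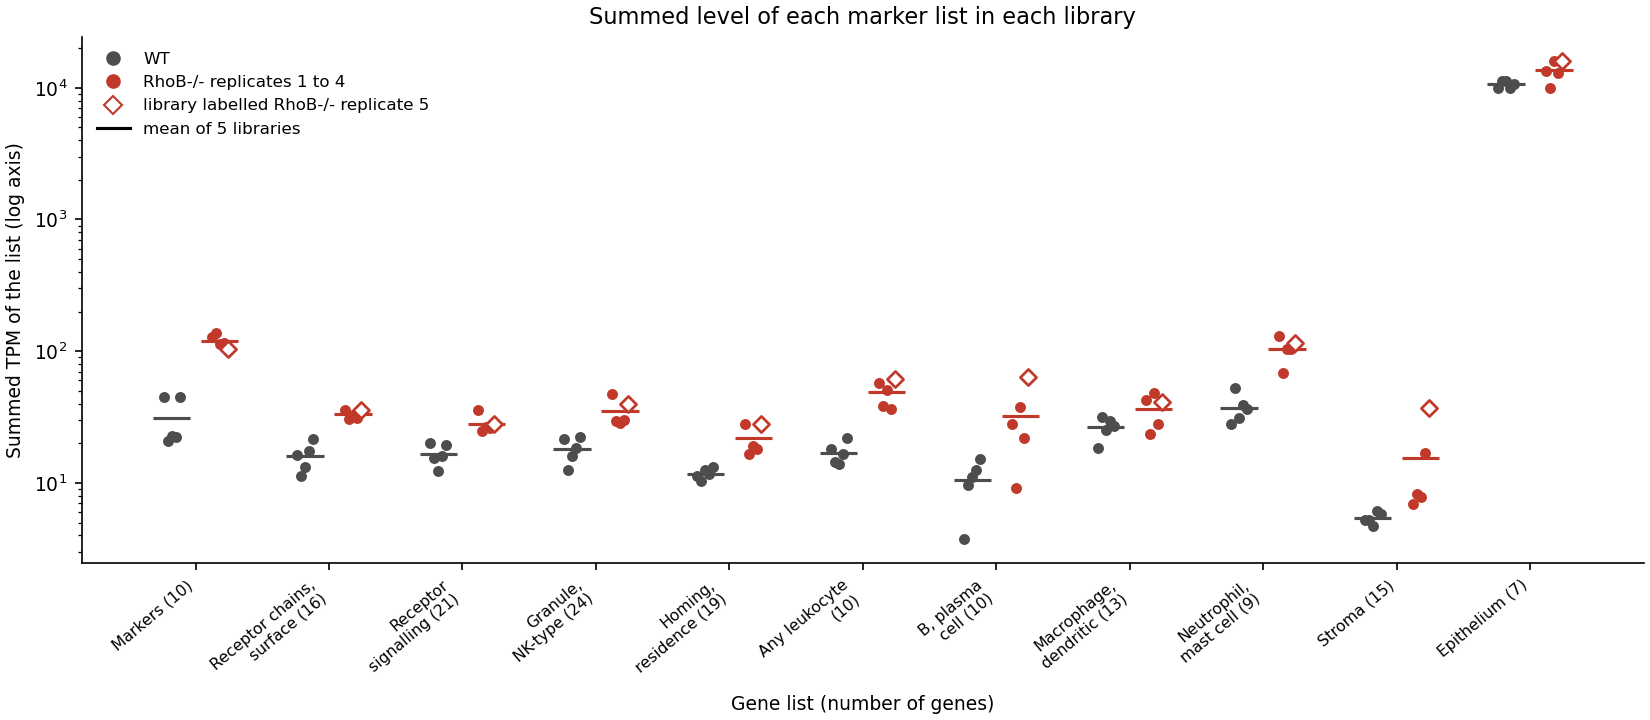
Summed TPM of each gene list on a log axis, with 1 point per library for 5 WT (grey) and 5 RhoB-/- libraries (red, the library labelled replicate 5 as an open diamond) and lines at the group means. The markers rise from 20.9 to 45.0 TPM in WT to 104 to 138 TPM in RhoB-/- libraries. The markers of any leukocyte, of neutrophils and mast cells and of stroma are also apart. Ly6g makes up a large part of the neutrophil and mast cell sums, and Dcn of the stromal sums. Sums without these genes were not compared. The lists of B and plasma cells, of macrophages and of epithelium overlap.

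To set the markers against other leukocyte message, each library was also centred on the mean log2(TPM + 1) of the 10 leukocyte markers, and separately on that of the 7 epithelial markers, both chosen after seeing the data. The median of all tested genes moved from -0.13 to -0.60 with the epithelial centre and to -1.22 with the leukocyte centre. Relative to epithelial markers, Gzma (1.85, adjusted p = 1.7e-04), Gzmb (1.64, adjusted p = 3.2e-04), Ccl5 (1.46, adjusted p = 9.9e-04), Nkg7 (0.85, adjusted p = 0.00466) and Cd8a (0.63, adjusted p = 0.00832, limma) were still called higher. Cd3g (0.50, adjusted p = 0.0525), Itgae (0.40, adjusted p = 0.13) and Cd3e (0.36, adjusted p = 0.137, limma) were not. The epithelial reference itself differed between the genotypes. On the TPM scale its genes Krt20 (1.17), Vil1 (0.65) and Cldn7 (0.53) were called higher, and Epcam, Krt8, Krt18 and Krt19 (0.09 to 0.29) were not. Over all genes, 450 were called higher and 9460 lower with the epithelial centre, and 155 higher and 11799 lower with the leukocyte centre.

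Relative to the leukocyte markers, Gzma (1.23, adjusted p = 7.4e-05), Gzmb (1.01, adjusted p = 0.00127) and Ccl5 (0.83, adjusted p = 0.00341, limma) were the only markers called higher. Nkg7 (0.22, adjusted p = 0.318) and Cd8a (0.0026, adjusted p = 0.991, limma) lay near 0, and Cd3g (-0.13), Itgae (-0.23), Cd3e (-0.27) and Trac (-0.28) turned to small negative values that were not called. On this scale the receptor, coreceptor and adhesion genes differed between the genotypes by about as much as the leukocyte markers did. Gzma, Gzmb and Ccl5 differed by more. The scale shrinks changes at low levels, and Ccl5 was more abundant than each leukocyte marker. In ratios of mean TPM, Ccl5 (3.82) and Gzmb (5.44) lay within the range of the leukocyte markers, 1.58 for Lcp1 to 5.65 for Cd53. Gzma (5.67) lay just above its upper end. No centred fit with another pseudocount was run. Over the 18 other settings of filter, pseudocount, scaling or libraries, the adjusted p of Gzma ranged from 1.0e-05 to 3.2e-04, that of Gzmb from 3.4e-05 to 8.7e-04 and that of Ccl5 from 1.2e-04 to 0.00197 (limma). The leukocyte list holds genes of several cell types, so its rise need not be that of T cells.

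**Figure D5:**
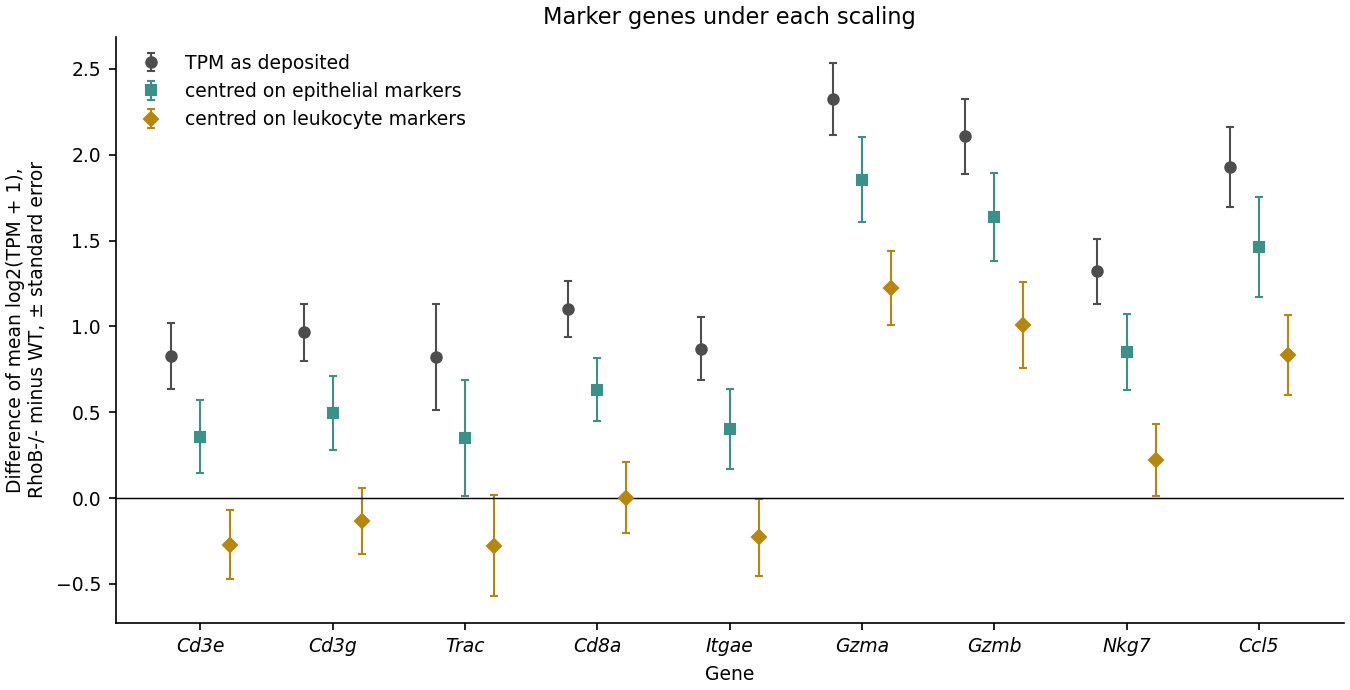
Difference of mean log2(TPM + 1) between RhoB-/- and WT libraries for the 9 tested markers, with its standard error (n = 5 per genotype), for TPM as deposited and with each library centred on epithelial or leukocyte markers. With the leukocyte centre Gzma, Gzmb and Ccl5 stay at 0.83 to 1.23 and the other 6 lie between -0.28 and 0.22. This scale shrinks changes at low levels, and no centred fit with another pseudocount was run.

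The genes whose level followed the markers most closely from library to library were sought after subtracting the mean of each genotype. The 8 tested genes with the highest Pearson correlation over 10 libraries with the mean standardized marker value were Gm15899 (0.83), Il2rb (0.82), Ciart (0.82), Gm27624 (0.80), Fyb (0.80), Zc3h8 (0.79), Tyrobp (0.79) and Gm22634 (0.78). These are descriptions without a test, over libraries that share the TPM scale. The marker value was 1.33 in WT replicate 1 and 0.996 in WT replicate 5. It was -0.79 to -0.76 in the other WT and -0.21 to 0.26 in the RhoB-/- libraries. The correlations thus rest largely on WT replicates 1 and 5. Ciart (-0.58), Gm27624 (-0.67) and Zc3h8 (-0.34) had negative log2 fold changes that were not called, and those of the others were positive. Il2rb, Fyb and Tyrobp belong to the lymphocyte and cytotoxic lists. Gm15899, the closest, had TPM of 19.8, 4.62, 0.72, 2.81 and 29.98 in WT and of 41.3, 27.1, 9.02, 25.9 and 11.3 in RhoB-/- replicates 1 to 5, with its highest WT values in replicates 1 and 5 as for the markers (log2 fold change 1.48, adjusted p = 0.156, limma).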

How the data were processed

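RNA of colonic IECs of 5 WT and 5 RhoB-/- mice was analysed, grouped by the labels, 1 library per label. Per the labels and the methods, the authors used SeqPrep and Sickle for read trimming, HISAT2 for alignment of the read pairs to GRCm38.p6, StringTie for assembly and RSEM for gene levels, deposited as TPM. Tool versions and use of strand in counting are not given in the sources used here (alignment used an orientation mode), edgeR is named without its role, and TPM keeps no depth, so counting error is unknown. All mapped columns were used.

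From the TPM, limma 3.58.1 (R 4.3.3; lmFit, eBayes with trend) was run on log2(TPM + 1) for 12870 genes with mean TPM of at least 1, with Benjamini-Hochberg adjustment. The exact permutation test was used for genes below the filter and for ratios (Python 3.11.15). The procedure was tested on simulated data. Positions are from GENCODE release M21 on GRCm38, which held 55141 of the 55487 gene identifiers, and promoters from RefSeq. Genes overlapping a marker were Haspin (Itgae), Trdv5 and Gm43434 (Trdc), and Gm48719 and Gm48720 (Cd3e, at most 0.54 TPM).

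The marker genes and lists were chosen with earlier results of these data known. Named were Rhob, all markers, all genes of the receptor and ligand lists, of every other list the most abundant gene and up to 4 called genes in each direction with the largest log2 fold change, and the 8 genes most like the markers. Some list genes and the list of innate lymphoid and helper T cell markers are not reported here. Further genes named were picked with their values in view. Alternatives were a pseudocount of 0.1 (ratios: 1), no filter or a mean TPM of at least 0.1, recentring on the median, quantile normalization, no mitochondrial genes, limma without trend, an unadjusted p below 0.05 with a fold change above 1.5, a replicate block, each library left out, and, added after seeing the data, the filter applied in each genotype and centring on epithelial or leukocyte markers.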

Additional observations from a re-analysis of the deposited data

Results flagged for a closer look

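In 155 groups of 5 values of the genes named by rule, 16 groups had a library far from the other 4. This was judged by the gap to its nearest neighbour, where chance gives about 1 in 20 groups, or 7.75. Genes picked further with their values in view, such as Adgre1 and C1qa, were not part of this count. The library labelled RhoB-/- replicate 5 was flagged for Rhob, at 110.87 TPM against 0.09 to 0.57 TPM in the other RhoB-/- libraries. It was also far above the others for Il15 (28.44 against at most 17.56 TPM), Btnl6 (144.45 against at most 98.2 TPM) and Prdm1 (9.52 against at most 4.24 TPM). None of the 10 markers had such a value in any group.

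RhoB-/- replicate 1 stood above its group for Cd8b1 (1.95 TPM), Cd28 (0.36 TPM), Trgc4 (2.69 TPM) and Gm27624 (12.32 TPM, the others at 0). RhoB-/- replicate 3 did so for Cd5 (1.07 TPM) and Il7 (2.28 TPM), and RhoB-/- replicate 2 for Zap70 (2 TPM). In WT, replicate 1 was high for Fyb (2.18 TPM) and Gm22634 (25.0 TPM), replicate 3 for Cd2 (0.94 TPM) and replicate 5 for Cd4 (0.12 TPM, the others at 0), while replicate 4 was low for Cd8b1 (0.04 TPM). The cause of these values was not tested.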

How the results depend on the processing

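The 8 called markers stayed called higher, each by limma at an adjusted p below 0.05, under all 18 settings other than those added after seeing the data, and the count of markers called higher with each library left out was 8 to 9 (lower: 0). With epithelial centring, added after seeing the data, 5 markers were called higher. With leukocyte centring Cd3e (-0.2707), Cd3g (-0.1335) and Itgae (-0.2279) turned negative and were not called. The lymphocyte lists had 26 of 80 tested genes called higher without a filter, beside 918 of all 28114. At a mean TPM of at least 0.1 they had 33 of 73, beside 1099 of all 18742. Of 28 tested genes, 10 to 15 were called higher with each library left out, and 6 higher and 4 lower with epithelial centring. With the filter applied in each genotype 9 of 21 were called higher, and without mitochondrial genes 1 was called lower.

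Over all genes, the count called lower was 771 after recentring, 3648 without mitochondrial genes, 1072 at an unadjusted p below 0.05 with a fold change above 1.5, and 860 to 2929 with each library left out (without WT replicate 4 and without RhoB-/- replicate 3). The count called higher was 1587 with quantile normalization and 716 to 1158 with each library left out. Epithelial centring gave 450 higher and 9460 lower. The cause of these shifts was not tested.

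Replicate numbers are shared by both genotypes but mark different mice, and deviations of same-numbered libraries correlated at -0.0874 to 0.072, with only replicate 3 matching its own number best, so the numbers do not pair the libraries. With a replicate block 1059 genes were called lower and 836 higher, and 8 markers higher. In paired form the Gzma to Cd3e difference of 1.417 had p = 0.0625 in the exact permutation test, the smallest that 5 pairs allow, as had Cd8a to Cd8b1 (-0.7657), and Gzmb to Cd3e (1.332) had p = 0.125.

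The Cd8a to Cd8b1 difference was 0.2514 with a pseudocount of 1. With each library left out, the differences were -0.9041 to -0.5805 for Cd8a to Cd8b1, 1.266 to 1.548 for Gzma to Cd3e, 1.149 to 1.573 for Gzmb to Cd3e and -1.424 to -0.6655 for Trdc to Trac. Since the reads behind each TPM are unknown, values near 0.1 TPM, as for Trdc and Cd8b1 in WT, cannot be given a counting error.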

Other observations

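Variable segments of the gamma and delta chains, outside the gene lists and chosen after their values were seen, were low. Trgv2 was above 0 in all 10 libraries, with 0.53 to 2.05 TPM in WT and 2.11 to 3.33 TPM in RhoB-/- libraries. Trgv4 had 0 to 1.36 and 0.32 to 2.10 TPM. Trgv7, the segment of the main gamma delta population of gut epithelium, was above 0 in 5 libraries, at 0.49 and 0.97 TPM in 2 WT libraries and at 0.58 to 1.02 TPM in 3 RhoB-/- libraries. Trdv1, Trdv3 and Trgv3 were listed at 0 in all 10 libraries, and Trdv4 was above 0 in 3 RhoB-/- libraries only (0.27 to 1.81 TPM). Trdv2-2 was above 0 in 4 libraries, at 0.85 and 0.79 TPM in WT and at 0.35 and 0.47 TPM in RhoB-/- libraries. Trdv5 had a mean of 0.33 TPM in WT and 0.07 TPM in RhoB-/- libraries. Trgv1 was above 0 in 5 libraries, with at most 0.50 TPM in WT and 1.11 TPM in RhoB-/- libraries. Trdv2-1, Trgv5 and Trgv6 were each above 0 in 1 library, a RhoB-/- one.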
